A study of Mus musculus with 6 samples.

Results

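Protocadherins are cell adhesion proteins with cadherin repeats outside the cell, and the mouse genome holds most of them in a single locus on chromosome 18. All protein-coding genes whose symbol begins with Pcdh were taken, which gave 69 of the 55802 genes in the deposited tables. They are 57 clustered genes on chromosome 18, in the Pcdha (14 genes), Pcdhb (22 genes) and Pcdhg (21 genes) clusters, and 12 non-clustered genes that stand alone. The members were taken by name and not by any measured value. Earlier results of these data were known when this group was chosen.

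Gene expression was measured by RNA sequencing in neural stem cells from the subventricular zone of adult C57BL/6 mice, the niche along the lateral ventricles that makes new neurons in adult life. Both groups were infected with an adenovirus for 24 h in culture, in medium with the B27 supplement. Control cells received ADV-GFP, a virus that carries green fluorescent protein alone (n = 3), and SETD4 OE cells received ADV-SETD4-GFP, which also carries SETD4, a protein of the SET-domain methyltransferase class (n = 3). Every control thus carries virus and fluorescent protein too. The labels do not say whether the replicates came from separate mice or cultures, so the p-values measure only the spread between these libraries, which may be technical.

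Each clustered protocadherin gene of the Pcdha and Pcdhg clusters starts with its own first exon, which encodes the extracellular and transmembrane parts, and is spliced to a few constant exons shared by the cluster. Pcdhb genes are single-exon genes. In neurons, most of these promoters are chosen at random in each cell by the insulator protein CTCF, cohesin and DNA methylation, whereas the C-type genes (Pcdhac1, Pcdhac2, Pcdhgc3, Pcdhgc4 and Pcdhgc5) are used more uniformly, and the resulting sets of isoforms let a neuron tell its own branches from those of other cells. The non-clustered genes of the delta-1 and delta-2 families encode homophilic adhesion proteins with long cytoplasmic tails and are expressed in region-specific patterns in the developing brain.

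Levels are FPKM, reads scaled to gene length and library size, and whole reads could be recovered from them (14924273 to 18078717 per library). Setd4 was listed at 0.952, 0.972 and 1.53 FPKM in control cells and at 295.5, 346 and 333 FPKM in SETD4 OE, which fits the labels. Reads of the cells' own Setd4 and of the viral copy cannot be told apart. The neural stem cell markers Nes, Sox2, Gfap, Slc1a3, Vim and Prom1 were all detected, and their summed level was 1582 to 1672 FPKM in the controls and 2471 to 2572 FPKM in SETD4 OE. Gfap gave most of that difference (321 ± 14.6 against 1388 ± 42.8 FPKM), Slc1a3, Sox2 and Prom1 also rose, and Nes (116.5 ± 16.0 against 42.7 ± 5.39 FPKM) and Vim (862 ± 27.5 against 682 ± 20.9 FPKM) fell (limma, SD, n = 3). Of the 12994 genes whose mean reached 1 FPKM, 60.0% were called changed (26.0% higher and 33.9% lower in SETD4 OE) at an adjusted p under 0.05 in limma on log2(FPKM + 1), and the median log2 fold change was -0.06. With upper-quartile scaling 4405 genes were higher and 3259 lower, against 3384 and 4406 with the authors' scaling, and the median moved to 0.07. Limma changes of the protocadherins are given on the authors' scale and should be read against these medians. Limma-voom changes are scaled by the summed recovered reads of each library. Their median over all genes tested that way was 0.09.

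The protocadherins as a group leaned to higher levels in SETD4 OE. Of the 69 members, 33 reached a mean of 1 FPKM and were tested, and 23 of these rose and 5 fell (limma, two-sided, Benjamini-Hochberg adjustment over all tested genes), with a median log2 fold change of 0.47. Of the 33, 7 passed the minimum only through their SETD4 OE level (Pcdhb5, Pcdhb7, Pcdhb17, Pcdhb18, Pcdhb19, Pcdhgb1 and Pcdhga4) and so had to lie higher there. Among the 26 members that reached 1 FPKM in both groups, 16 rose and 5 fell, beside 24.5% higher and 34.5% lower among the 12117 genes that did so. In the recovered reads, where genes with a mean of 10 reads were tested with limma-voom, 54 members could be tested. Of these, 45 rose and 5 fell, beside 33.8% higher and 26.2% lower among all 15645 genes tested that way. Pcdha9, Pcdha12, Pcdhb2 and Pcdhb13 reached that mean only through SETD4 OE and so had to lie higher there. Counted over all 69 members whatever their level, the 3 SETD4 OE libraries lay above the 3 controls for 46 and below them for 5, and the groups overlapped for 18. Among all 30911 genes with a read those shares were 20.4% above and 17.6% below. Of the 26 members at 1 FPKM in both groups, 19 lay above and 5 below. Of the 12117 genes at that level, 3350 lay above and 4555 below. In a culture sequenced as a whole, a shift in the share of cells of a type and a shift in RNA per cell cannot be told apart.

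Summed over all members, the level was 109.8 ± 2.40 FPKM in control cells and 150.7 ± 2.59 FPKM in SETD4 OE (SD, n = 3 each). The difference was uneven between subgroups. The summed Pcdhb level was 2.27-fold higher, at 11.7, 10.5 and 10.7 FPKM in control cells and 25.6, 25.2 and 23.7 FPKM in SETD4 OE, with no overlap. Pcdhga genes together stood at 16.0 ± 1.64 FPKM against 26.2 ± 0.633 FPKM, and Pcdhgb genes at 9.75 ± 0.7503 FPKM against 15.7 ± 1.04 FPKM (SD, n = 3). The 5 C-type genes together stood at 39.98 ± 1.37 FPKM in control cells and 39.68 ± 0.636 FPKM in SETD4 OE, a ratio of 0.992, and their libraries overlapped. Pcdhgc3 alone held 31.4 FPKM and 33.6 FPKM of these sums. The mean was higher in SETD4 OE for 3 of the 5 and lower for Pcdhgc5 and Pcdhac2. Delta-2 genes together were 1.74-fold higher (15.3 ± 0.607 FPKM against 26.6 ± 0.909 FPKM). Pcdh10 alone held 8.47 FPKM and 17.3 FPKM of the delta-2 sums, and Pcdh18 was lower in SETD4 OE. Delta-1 genes were lower, at 0.906 of the control level (17.2 ± 0.391 FPKM against 15.6 ± 0.428 FPKM). These sums are descriptions, with no test of their own, and with 3 libraries a group the smallest exact two-sided permutation p for any 1 of them would be 0.10.

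**Figure D1:**
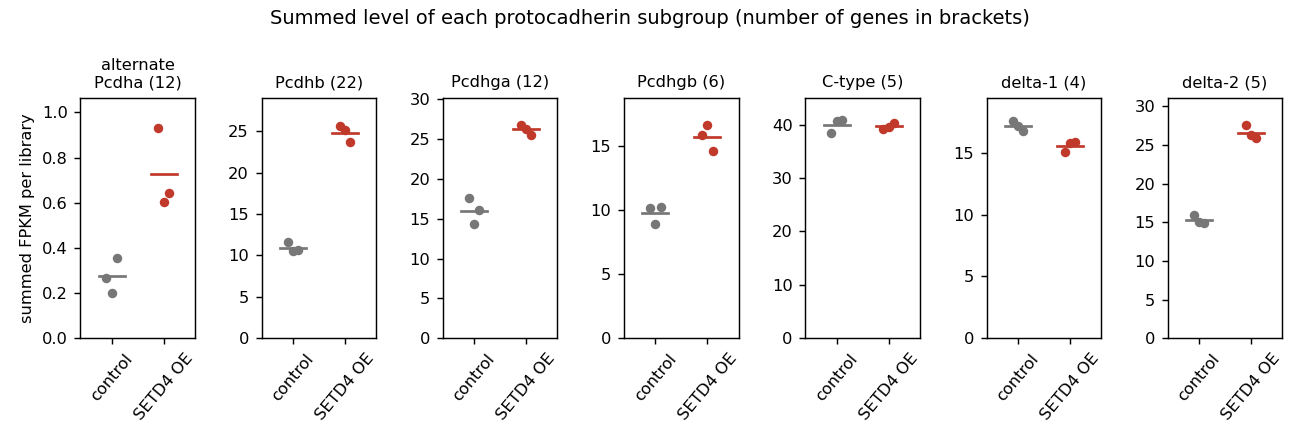
Summed FPKM per library (vertical axis, from 0, scaled separately in each panel) for 7 subgroups of protocadherin genes. Points are the 3 control (grey) and 3 SETD4 OE (red) libraries and bars are group means; Pcdhb, Pcdhga, Pcdhgb, alternate Pcdha and delta-2 genes lie higher in SETD4 OE, delta-1 genes lie lower, and the 5 C-type genes overlap.

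The delta-2 family holds Pcdh8, Pcdh10, Pcdh17, Pcdh18 and Pcdh19, whose tails can recruit the WAVE complex that builds branched actin. Pcdh10, also known as OL-protocadherin and needed for the growth of striatal axons, had the most reads of the 5 and of all non-clustered members (2096 to 2350 reads per control library). Pcdh10 was at 8.71, 8.41 and 8.29 FPKM in control cells and at 17.7, 17.2 and 17.2 FPKM in SETD4 OE. The groups were far apart and the libraries within each nearly level. On the log2(FPKM + 1) scale the difference was 0.95 (SE 0.05, adjusted p = 9.06e-06, limma). The gene lies on chr3:45332833-45390058, plus strand, in the build of the tables, mm39.

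Pcdh8, which neurons induce with activity and which promotes the internalisation of N-cadherin, rose from 1.20, 0.939 and 0.887 FPKM to 3.27, 2.69 and 2.96 FPKM (log2 difference 0.99, SE 0.10, adjusted p = 1.56e-04). Its ratio of mean FPKM, 2.95, was higher than the 2.05 of Pcdh10, and the log2(FPKM + 1) scale shows the pair nearly alike because the pseudocount shrinks low genes. Pcdh17, which acts at synapses of corticobasal ganglia circuits, rose from 2.53, 2.25 and 2.53 FPKM to 3.84, 3.72 and 3.41 FPKM (0.44, SE 0.07, adjusted p = 0.00183). Every SETD4 OE library lay above every control for these 3 genes. Pcdh8 lies on chr14:80004215-80008752, minus strand, and Pcdh17 on chr14:84681003-84776442, plus strand.

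Pcdh18 went the other way. It was at 2.71, 2.52 and 2.37 FPKM in control cells and at 1.65, 1.59 and 1.34 FPKM in SETD4 OE, with no overlap (log2 difference -0.48, SE 0.09, adjusted p = 0.00259, limma). It lies on the same chromosome as Pcdh10, at chr3:49697745-49711774, minus strand. Pcdh19, an X-linked gene (chrX:132483609-132589736, minus strand) whose mutations cause an epilepsy that affects mainly girls, had a mean under 1 FPKM and was not in that test. Pcdh19 was at 0.859, 0.885 and 0.835 FPKM in control cells and at 1.21, 1.16 and 1.01 FPKM in SETD4 OE. In the recovered reads its log2 fold change was 0.46 (limma-voom, adjusted p = 0.00801). In the same family, then, 3 genes tested with limma rose and 1 fell, beside 26.0% higher and 33.9% lower among all tested genes.

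The stretch upstream of the annotated start is shown for the 5 delta-2 genes because this family moved in both directions. The sequences come from the RefSeq promoter table of GRCm38.p6, in which 9 of the 69 members had an entry (Pcdh7, Pcdh8, Pcdh9, Pcdh10, Pcdh15, Pcdh17, Pcdh18, Pcdh19 and Pcdh20). They run 5′ to 3′ on the gene's strand, from 105 to 11 bases before the start, and lie at chr14:79771323-79771417 (minus strand), chr3:45378293-45378387 (plus), chr14:84443458-84443552 (plus), chr3:49757327-49757421 (minus) and chrX:133689004-133689098 (minus) of that build. Capitals mark ATTGG, the reverse complement of the CCAAT box to which the factor NF-Y can bind.
Pcdh8: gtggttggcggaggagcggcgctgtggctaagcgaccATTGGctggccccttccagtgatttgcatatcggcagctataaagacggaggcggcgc
Pcdh10: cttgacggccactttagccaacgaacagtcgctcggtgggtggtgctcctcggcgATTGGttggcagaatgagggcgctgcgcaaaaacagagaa
Pcdh17: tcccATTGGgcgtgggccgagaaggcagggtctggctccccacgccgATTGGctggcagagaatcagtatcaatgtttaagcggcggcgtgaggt
Pcdh18: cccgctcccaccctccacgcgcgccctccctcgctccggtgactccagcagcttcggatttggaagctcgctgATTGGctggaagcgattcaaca
Pcdh19: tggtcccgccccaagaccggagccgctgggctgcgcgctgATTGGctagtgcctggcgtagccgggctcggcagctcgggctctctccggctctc
In each of the 5, an ATTGG is followed by the same spacing of bases, ATTGGNTNG with N for any base, beginning 68, 50, 58, 32 and 65 bases before the start in that order. The motif was written down after these sequences had been read. In the 250 bases before the start, searched on both strands, it was found in none of the 4 other members with an entry, and 3.7% of the table's 32544 promoters of distinct sequence hold it in the same 250 bases. CCAAT on either strand stands in 33.8% of them, so a plain CCAAT box is common. Pcdh18, which fell, and Pcdh8, Pcdh10 and Pcdh17, which rose, all carry the motif, so its presence did not go with 1 direction. A match is a description of letters and no evidence that a factor binds.

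The delta-1 family, Pcdh1, Pcdh7, Pcdh9 and Pcdh11x, has tails that bind protein phosphatase 1. Pcdh1, an adhesion protein also known from airway epithelium, fell from 6.17, 6.25 and 5.95 FPKM to 4.69, 4.67 and 5.10 FPKM (log2 difference -0.29, SE 0.06, adjusted p = 0.00414). With upper-quartile scaling Pcdh1 was at -0.17 with an adjusted p of 0.0527. Pcdh7, which binds the phosphatase inhibitor SET, fell from 5.40, 5.60 and 5.19 FPKM to 4.12, 4.26 and 4.05 FPKM (-0.31, SE 0.06, adjusted p = 0.00273). Neither gene's groups overlapped. A gene on the other strand, 4932441J04Rik, overlaps 21.1% of the exon bases of Pcdh7 and was at 0.144 FPKM.

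Pcdh9 was at 5.40, 5.04 and 5.14 FPKM in control cells and at 5.44, 6.03 and 5.97 FPKM in SETD4 OE. The groups did not overlap but came close, and the log2 difference of 0.14 (95% interval -0.01 to 0.28) did not pass (limma, adjusted p = 0.0934). It passed with equal sums (adjusted p = 0.0249), with upper-quartile scaling (0.0145) and with limma-voom (0.0192). Pcdh11x, on the X chromosome, was at 0.582, 0.322 and 0.482 FPKM against 0.808, 0.794 and 0.727 FPKM, a log2 fold change of 0.88 in the recovered reads (limma-voom, adjusted p = 0.00145). Pcdh1 and Pcdh7 thus fell while the low-level Pcdh11x rose in the read-based test.

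The remaining 3 non-clustered genes were at or under 1.25 FPKM in every library. Pcdh20 had 17, 20 and 24 reads in the controls and 107, 107 and 79 reads in SETD4 OE. Its control mean was 0.225 FPKM and its SETD4 OE mean 1.12 FPKM, a ratio of 4.97, the highest among the non-clustered genes with reads in both groups, and the log2 fold change in reads was 2.36 (limma-voom, adjusted p = 1.39e-05). Pcdh15, a component of the tip links of inner ear hair cells, had 53, 55 and 24 reads against 90, 96 and 100 (1.31, limma-voom, adjusted p = 6.27e-04). Pcdh12, a protocadherin of endothelial cells, had 1 read in 1 SETD4 OE library and 0 in the other 5 libraries, where a count of 0 allows up to 3 reads each. The endothelial markers Pecam1, Cldn5, Cdh5, Kdr and Flt1 summed to 3.81 to 4.21 FPKM in the controls and 1.06 to 1.44 FPKM in SETD4 OE, with Cldn5 at 0 in every library. The lower sum was mainly Flt1 (3.43 ± 0.148 against 0.618 ± 0.0638 FPKM). The mean of Pecam1 was also lower (0.1106 against 0.0498 FPKM), with 34 reads over the controls and 15 over SETD4 OE. The means of Cdh5 (0.3125 and 0.3365 FPKM) and Kdr (0.1345 and 0.214 FPKM) were not lower.

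**Figure D2:**
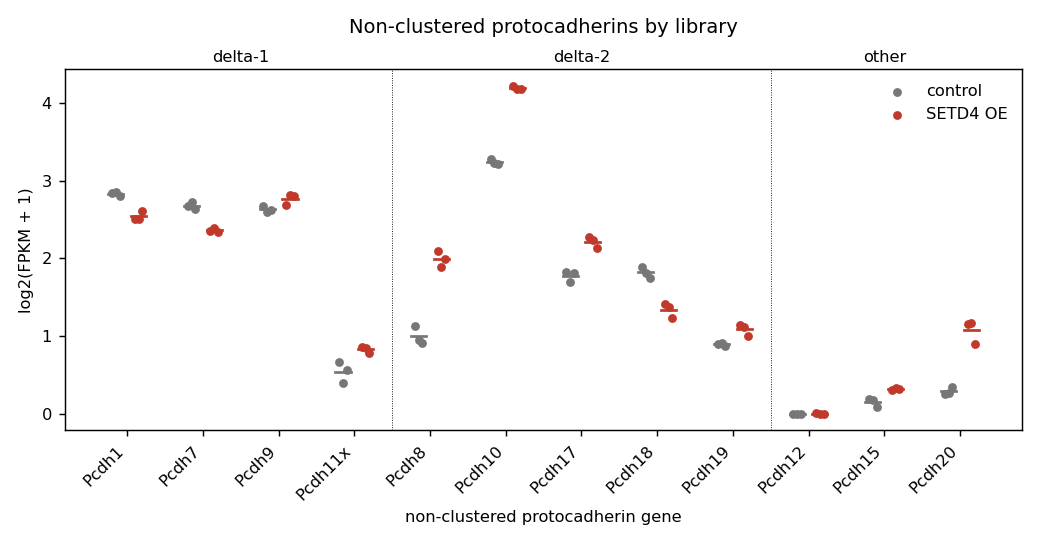
Level of the 12 non-clustered protocadherin genes as log2(FPKM + 1) (vertical axis) in each control (grey) and SETD4 OE (red) library, with bars at the group means and dotted lines between families. Pcdh8, Pcdh10, Pcdh17 and Pcdh20 stand higher in SETD4 OE, Pcdh1, Pcdh7 and Pcdh18 stand lower, and Pcdh12 is at or near 0.

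The Pcdhb genes encode adhesion proteins without the constant tail of the other clusters. All 7 that were tested rose, with a median log2 fold change of 0.69, beside 26.0% of all genes tested with limma. However, 5 of the 7 reached the minimum only through SETD4 OE. The 2 that reached 1 FPKM in both groups were Pcdhb20 and Pcdhb22. Pcdhb22, with the most reads of the cluster, was at 1.34, 0.929 and 1.14 FPKM in the controls and at 2.53 FPKM in each SETD4 OE library (log2 difference 0.73, SE 0.10, adjusted p = 5.62e-04). Pcdhb20 rose from 1.51, 1.26 and 1.47 FPKM to 2.87, 2.86 and 2.73 FPKM (0.66, SE 0.08, adjusted p = 3.45e-04). Neither gene's groups overlapped.

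Pcdhb5 had the highest fitted change of the cluster. It was at 0.600, 0.691 and 0.320 FPKM in control cells and at 2.38, 1.95 and 1.80 FPKM in SETD4 OE (log2 difference 0.99, SE 0.13, adjusted p = 6.45e-04, limma). Pcdhb7, Pcdhb17, Pcdhb18 and Pcdhb19 differed by 0.58 to 0.72 on that scale, with adjusted p between 9.48e-04 and 0.00323. Pcdhb19, the second by reads, went from 98, 136 and 102 reads to 211, 220 and 222.

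The read-based test reached further into the cluster. Of the 22 Pcdhb genes, 20 had a mean of 10 reads, and 19 of these rose (limma-voom), with log2 fold changes over all 20 of 0.78 to 2.04 and a median of 1.27. Pcdhb13 was the one that did not pass, at 13, 3 and 3 reads against 22, 4 and 17 (1.29, adjusted p = 0.131). Pcdhb2, which rose, and Pcdhb13 reached the mean of 10 reads only through SETD4 OE and so had to lie higher there. Genes with the read depth of these 20 (10.3 to 195.5 reads on average, 5909 genes) rose in 37.1% of cases and had a median of 0.39. Over all 22, every mean was higher in SETD4 OE, and 19 genes had all SETD4 OE libraries above all controls, against 20.4% of genes with a read. That share was not taken for genes of like read depth. The exceptions were Pcdhb1, with 1 read in all, Pcdhb12, with 4, 2 and 1 reads against 9, 4 and 0, and Pcdhb13. Pcdhb genes share few sequences with each other (a median of 4.26% of the 50-base words of a gene occur in another protocadherin) against medians of 59.6% in Pcdha and 44.4% in Pcdhg, so the reads of single Pcdhb genes are easier to tell apart.

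The Pcdhg cluster, whose loss kills spinal interneurons in mice, was the most abundant. It held 18 tested genes, of which 13 rose and 1 fell in limma, with a median log2 difference of 0.43. Among all genes tested with limma 26.0% rose and 33.9% fell, with a median of -0.06. In the recovered reads 17 of 20 tested Pcdhg genes rose and 1 fell (limma-voom, median 0.75), where 34.0% of the 10993 genes of that read depth rose. Among the Pcdhga and Pcdhgb genes 13 of 15 rose and none fell, 2 of the 15 (Pcdhga4 and Pcdhgb1) having passed the minimum through SETD4 OE alone. Pcdhgb6, the one with the most reads of these, rose from 3.61, 3.29 and 3.79 FPKM to 5.48, 5.66 and 5.70 FPKM (log2 difference 0.54, SE 0.06, adjusted p = 3.63e-04). Pcdhga3 rose from 2.55, 2.32 and 2.52 FPKM to 4.38, 4.10 and 4.27 FPKM (0.60, SE 0.06, adjusted p = 2.18e-04). Pcdhgb7 rose from 1.31, 1.12 and 1.32 FPKM to 2.67, 2.96 and 2.09 FPKM (0.66, SE 0.11, adjusted p = 0.00196), the highest of the cluster on the log2(FPKM + 1) scale (in limma-voom Pcdhga4, at 1.24, and Pcdhga9 were above its 1.11), with the SETD4 OE libraries more spread than those of Pcdhga3 or Pcdhgb6.

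The other Pcdhga and Pcdhgb genes that rose were Pcdhga2, Pcdhga4, Pcdhga5, Pcdhga6, Pcdhga7, Pcdhga11, Pcdhga12, Pcdhgb1, Pcdhgb2 and Pcdhgb4, by 0.31 (Pcdhgb4) to 0.55 (Pcdhga4). The calls of Pcdhgb1 (adjusted p = 0.0191) and Pcdhgb4 (0.0170) did not hold in every setting. Pcdhgb1 missed the threshold when control replicate 1 (adjusted p = 0.0506), SETD4 OE replicate 1 (0.0670) or replicate 2 of that group (0.0621) was left out. Pcdhgb4 missed it when control replicate 2 (0.0545), control replicate 3 (0.0582) or SETD4 OE replicate 1 (0.0617) was left out. With no minimum on the level they had 0.0573 and 0.0546.

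Pcdhga8 and Pcdhgb5 did not pass. Pcdhga8 was at 1.20, 1.13 and 1.502 FPKM against 1.62, 1.74 and 1.23 FPKM, with overlapping groups and a 95% interval of the log2 difference from -0.13 to 0.43 (limma, adjusted p = 0.306). Pcdhgb5 was at 1.20, 0.895 and 1.20 FPKM against 1.62, 1.63 and 1.36 FPKM, without overlap, and its interval was 0.02 to 0.53 (adjusted p = 0.0575). Pcdhgb5 passed with equal sums (0.0378), upper-quartile scaling (0.0291) and limma-voom (0.00749). Under the minimum were Pcdhga1, Pcdhga9 and Pcdhga10. Pcdhga1 and Pcdhga9 had log2 fold changes in reads of 0.91 and 1.14 (limma-voom, adjusted p = 0.00408 and 0.00258), and Pcdhga10 had 6 reads in all.

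Of the 4 C-type genes tested none rose (Pcdhgc3 did under 2 other scalings and in limma-voom), 2 fell and 2 did not pass, and among all tested genes 26.0% rose and 33.9% fell. Of the clustered genes that are not C-type, 15 reached 1 FPKM in both groups, and 13 of these rose and none fell. A further 7 passed only through SETD4 OE. This contrast between the gene classes was not tested, since genes of 1 locus are not independent replicates. Pcdhgc3, by far the most abundant protocadherin, was at 29.6, 32.4 and 32.1 FPKM in control cells and at 33.1, 33.9 and 33.8 FPKM in SETD4 OE. The groups did not overlap but lay close, and the log2 difference of 0.10 (95% interval -0.03 to 0.23) did not pass (limma, adjusted p = 0.170). It passed with equal sums (0.0223), upper-quartile scaling (0.00356) and limma-voom (0.18, adjusted p = 0.0177). The minus-strand gene BC037039, at 0.927 FPKM, overlaps 28.4% of the exon bases of Pcdhgc3.

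Pcdhgc4, the isoform on which the survival of interneurons depends, was at 1.51, 1.18 and 1.65 FPKM against 1.65, 1.59 and 1.52 FPKM, with overlapping groups and a 95% interval from -0.15 to 0.33 (limma, adjusted p = 0.493). Pcdhgc5, which lies at the end of the cluster (chr18:37952566-37974926, plus strand), fell from 5.11, 4.39 and 4.63 FPKM to 2.72, 2.34 and 3.09 FPKM (log2 difference -0.62, SE 0.09, adjusted p = 0.00110). Pcdhac2, the last isoform of the alpha cluster and the one of serotonergic neurons (chr18:37276556-37320710, plus strand), fell from 2.13, 2.62 and 2.33 FPKM to 1.53, 1.53 and 1.78 FPKM (-0.36, SE 0.09, adjusted p = 0.0117). Both genes' SETD4 OE libraries lay below all controls. Pcdhac1 had 3, 15 and 3 reads in the controls and 13, 10 and 15 in SETD4 OE, with overlap, and was not tested.

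The alpha cluster was nearly silent apart from Pcdhac2. Its 12 alternate genes together stood at 0.274 ± 0.0774 FPKM in control cells and 0.725 ± 0.179 FPKM in SETD4 OE (SD, n = 3). Of the 12, Pcdha12 differed most in reads, with 2, 3 and 5 reads in the controls and 25, 20 and 22 reads in SETD4 OE. Its log2 fold change of 2.77 rests on few reads (limma-voom, adjusted p = 1.92e-04). All its control values lay under the minimum of 10 reads, so Pcdha12 passed only through SETD4 OE and had to lie higher there. Pcdha9, the next by reads, had 11, 5 and 10 against 17, 7 and 12 reads, with overlap (0.58, adjusted p = 0.318). Pcdha1 and Pcdha4 had 0 reads in all 6 libraries, where a count of 0 allows up to 3 reads in each, and Pcdha2, Pcdha3, Pcdha5, Pcdha6, Pcdha7, Pcdha8 and Pcdha11 had at most 6 reads in any library.

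These alpha and gamma values carry a limit that the beta and non-clustered values do not. In the GENCODE M21 models, whose exon lengths equal the deposited gene lengths for 69 of 69 members, shared exons make up 38.0% to 54.9% of each Pcdha gene and 27.8% to 66.8% of each Pcdhg gene, at most 9.67% of a Pcdhb gene and none of a non-clustered gene. Pcdha1 and Pcdha4 had 0 reads although Pcdhac2, which has the same constant exons, had 690 reads over the controls. Reads in the constant exons were therefore not given to every gene that contains them, and to which gene they went is not given in the sources used here. FPKM of single Pcdha and Pcdhg genes divides by a length that includes those exons.

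The make-up of the clustered reads differed between the groups as well. C-type genes held 53.0%, 58.3% and 55.9% of the reads on the 57 clustered genes in the controls and 39.6%, 39.8% and 42.1% in SETD4 OE, with no overlap. Pcdhgc5 and Pcdhac2 together went from 12.01% ± 0.309 to 5.45% ± 0.736, and Pcdhgc3 alone from 41.7% ± 2.82 to 33.3% ± 0.778. The Pcdhb share went from 12.4% ± 0.651 to 20.6% ± 0.390, the Pcdhga share from 19.2% ± 1.62 to 23.6% ± 0.303 and the Pcdhgb share from 12.3% ± 0.654 to 14.6% ± 0.828 (SD, n = 3 each). The authors' scaling of the libraries cancels in these shares.

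**Figure D3:**
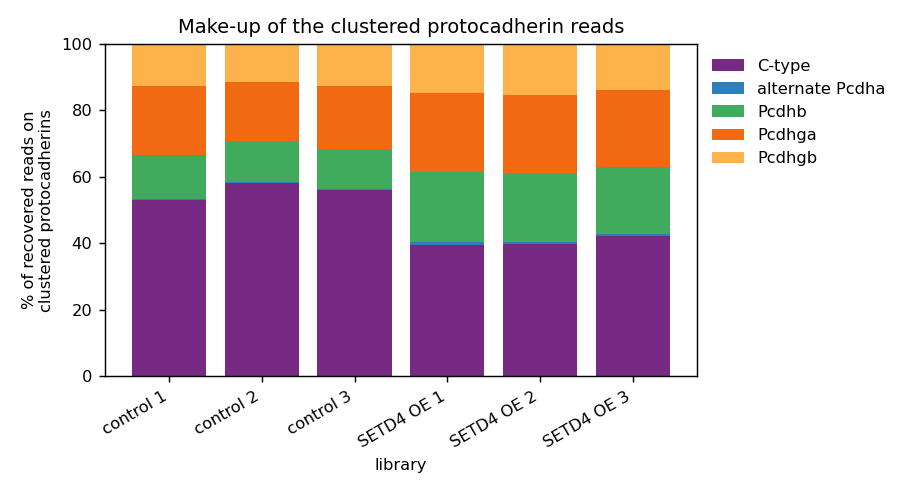
Share of the recovered reads on clustered protocadherin genes (vertical axis, percent, from 0) that fell on C-type, alternate Pcdha, Pcdhb, Pcdhga and Pcdhgb genes, stacked for each of the 6 libraries. C-type genes hold 53.0% to 58.3% in the 3 control libraries and 39.6% to 42.1% in the 3 SETD4 OE libraries.

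Along the locus the log2 fold changes in reads were not even. The first 10 of the 20 Pcdhb genes in genome order (Pcdhb2 to Pcdhb11) had a median of 1.49 (0.84 to 2.04), and the last 10 (Pcdhb13 to Pcdhb22) had a median of 1.14 (0.78 to 1.34). Across genes, Spearman's rho between the change and the start position was -0.537 for 20 Pcdhb genes and -0.651 for 20 Pcdhg genes (-0.434 for the 17 that are not C-type). The change also went with the control level per length (rho -0.322 in Pcdhb and -0.589 in Pcdhg). The same control reads are the base of the fold change, so noise in them alone pushes this rho below 0. With gene length, rho was -0.343 in Pcdhb and -0.507 in Pcdhg. With the share of 50-base words found in another protocadherin, it was 0.119 in Pcdhb and 0.487 in Pcdhg. Among the 17 Pcdhg genes that are not C-type, rho was weaker for control level (-0.458), gene length (-0.348) and shared words (0.211). The genes share libraries and, in Pcdhg, exons, so these are descriptions with no test.

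**Figure D4:**
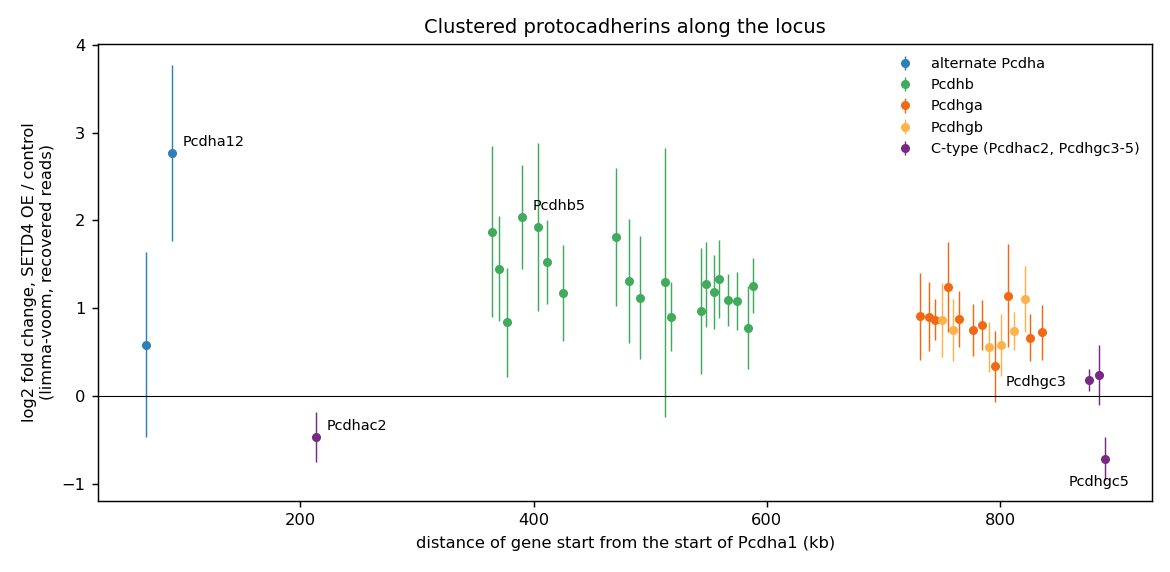
Log2 fold change in recovered reads with 95% interval (vertical axis, limma-voom, SETD4 OE over control) for the clustered genes with a mean of 10 reads, placed by the distance of the gene start from the start of Pcdha1 in kb (horizontal axis) and coloured by subgroup. Every Pcdhb, Pcdhga and Pcdhgb point lies above 0, while Pcdhac2 and Pcdhgc5 lie below it.

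Genes that act on the choice of protocadherin promoters, with other silencing factors, were taken as a list of 27, of which 26 were tested. Of these 5 rose and 9 fell, with a median log2 difference of -0.09, beside 26.0% and 33.9% of all tested genes and a median of -0.06. Dnmt1, the maintenance DNA methyltransferase, fell from 24.7 ± 1.05 FPKM to 9.79 ± 0.255 FPKM (log2 difference -1.25, SE 0.05, adjusted p = 5.07e-06). Trim28, a corepressor of zinc finger proteins, fell from 97.2 ± 2.91 FPKM to 52.98 ± 1.85 FPKM (-0.86). The cohesin subunit Smc1a fell from 28.6 ± 0.606 FPKM to 20.3 ± 1.32 FPKM (-0.48), and Smchd1, a silencer of the clustered protocadherins in mice, from 5.34 ± 0.505 FPKM to 3.89 ± 0.210 FPKM (-0.37, SD, n = 3 each). Ctcf, singled out after its value was seen, went from 23.2 ± 1.07 to 19.2 ± 0.645 FPKM (-0.26, adjusted p = 0.00593, and -0.12 with 0.154 under upper-quartile scaling). The de novo enzyme Dnmt3a, chosen likewise, was at 12.3 ± 1.18 and 12.5 ± 0.821 FPKM (0.02, adjusted p = 0.814). Under upper-quartile scaling 4 of the list fell and 7 rose.

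A second list held 31 adhesion partners, proteases and cytoplasmic effectors of protocadherins. Of 29 tested, 7 rose and 9 fell, with a median log2 difference of -0.06, close to the 26.0%, 33.9% and -0.06 of all tested genes. Celsr1, a seven-pass cadherin of planar cell polarity, rose from 2.90 ± 0.174 to 6.58 ± 0.384 FPKM (log2 difference 0.96, SE 0.07, adjusted p = 2.98e-05). Cyfip2, a subunit of the WAVE complex, rose from 5.66 ± 0.295 to 9.65 ± 0.346 FPKM (0.68). Set, the partner of Pcdh7, fell from 118.9 ± 4.67 to 50.1 ± 0.158 FPKM (-1.23), and Ppp1ca, the phosphatase 1 subunit bound by delta-1 tails, from 128.8 ± 10.2 to 75.2 ± 3.17 FPKM (-0.77, SD, n = 3 each). Pcdh7, Set and Ppp1ca all fell, but Set and Ppp1ca were named for their large changes within this list. Pcdh9 and Pcdh11x of the delta-1 family did not fall, and a joint change was not tested. Cdh2, N-cadherin, named after its value was seen, fell from 70.0 ± 2.10 to 48.4 ± 0.709 FPKM (-0.52, adjusted p = 1.30e-04).

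Protocadherins are best known from neurons, and markers of other cell types were read beside them. The 7 neuron markers (Rbfox3, Syt1, Snap25, Stmn2, Map2, Slc17a7 and Gad1) summed to 30.96 to 36.1 FPKM in the controls and 32.8 to 38.2 FPKM in SETD4 OE, with Map2 giving most of it and Rbfox3, Syt1, Snap25 and Slc17a7 under 0.6 FPKM in every library. Of the 7, Gad1 rose (log2 difference 0.70), Stmn2 fell (-0.59), and Rbfox3 rose in the recovered reads (limma-voom, 1.42 from few reads). Gad1 passed the minimum only through its SETD4 OE level and so had to lie higher there in limma. In the recovered reads its log2 fold change was 1.47 (limma-voom). Rbfox3 reached the minimum of 10 reads only through SETD4 OE and so had to lie higher there in limma-voom. The 4 neuroblast markers summed to 26.6 to 28.8 FPKM and 25.8 to 28.6 FPKM, but they moved in different directions. Tubb3 rose (log2 difference 0.54), Sox11 fell (-0.46), Dlx2 was at -0.08 and did not pass, and Dcx, under the minimum, rose in the recovered reads (limma-voom log2 fold change 1.54). Sums of the oligodendrocyte (7.46 to 8.64 against 19.1 to 20.6 FPKM), ependymal (19.0 to 24.6 against 47.9 to 64.4 FPKM) and pericyte and fibroblast markers (3.28 to 3.62 against 10.4 to 11.9 FPKM) were higher in SETD4 OE. The oligodendrocyte precursor sum was lower (308.5 to 366 against 134.5 to 150 FPKM), which was Olig2 (339 ± 32.2 against 128 ± 7.76 FPKM, SD, n = 3), whereas the other 3 markers, Pdgfra, Sox10 and Cspg4, rose. Across the microglia markers the sum was 0.758 to 1.01 against 0.934 to 1.65 FPKM. The part of any of these in the protocadherin values was not tested.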

How the data were processed

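RNA-seq of 3 control and 3 SETD4 OE libraries was used. FPKM values per gene were made by the authors; HISAT2 2.0.5 and mm39 come from the submitters' processing notes, and the counter, its strand setting and its annotation are not given in the sources used here. Gene length (the other column used) is the authors' deposited value. FPKM times length gave whole reads for 100% of values (tolerance 0.05 reads), 14924273 to 18078717 per library, which limits genes with few reads. Libraries of a group differed beyond sampling noise (chi-square per degree of freedom 3.89 to 16.3), so none was the same library deposited again. Separate preparations of 1 culture would also differ in this way.

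Values were set to log2(FPKM + 1), which understates the change of low genes. Genes whose mean reached 1 FPKM were tested by limma 3.58.1 (R 4.3.3) (mean-variance trend, two-sided, Benjamini-Hochberg over 12994 genes, threshold 0.05). In simulated reads for this comparison (12909 genes tested), 70 of 104 genes changed 1.5-fold, 90 of 96 changed 3-fold and 10 unchanged genes were called. The simulation changed 200 genes and gave every gene the same fixed spread beyond sampling noise. In the data 60.0% of tested genes were called, so these rates need not hold for the real comparison. Limma-voom used the recovered reads (mean of at least 10). Named genes are all non-clustered members, clustered members that passed the minimum, the 3 with most reads per cluster, Setd4 and up to 4 called genes per list. The members and lists were chosen with earlier results of these data known. Alternatives were other minimums, pseudocount 0.1, 3 scalings, limma-voom, the replicate number as a block and leaving out each library. Exon sharing came from GENCODE M21 models and promoters from RefSeq, both of GRCm38; gene coordinates are mm39. Figures used matplotlib 3.10.9.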

Additional observations from a re-analysis of the deposited data

How the results depend on the processing

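Of 45 genes tested with limma and recomputed under the alternatives, 37 kept their direction and their side of the threshold in every alternative run, and no gene reversed; the others are Pcdh1, Pcdh9, Pcdhgb1, Pcdhgb4, Pcdhgb5, Pcdhgc3, Ctcf and Rad21 (Rad21 is not described elsewhere; its log2 difference was -0.08 to -0.28). Genes given a limma-voom test alone, Dnmt3a and the cell type markers were not recomputed in this way. The minimum set how many members were counted. With a mean of 0.1 FPKM, 38 of 56 members rose (33 clustered, 5 non-clustered), beside 4247 of 20432 genes in all. With no minimum 33 of 67 rose (5 non-clustered), beside 3978 of 30911 genes. With a minimum of 5 FPKM only 4 members were tested, 1 of them clustered. Of these 1 rose and 1 fell, both non-clustered, with 0 clustered calls in either direction. In all, 1881 of 8057 genes rose there. With limma-voom 45 of 54 members rose (37 clustered, 8 non-clustered), beside 5294 of 15645 genes in all. The chromatin list had 3 rises at 5 FPKM and 9 with limma-voom, and 4 falls with upper-quartile scaling. The partner list had 4 rises at 5 FPKM, 11 with upper-quartile scaling and 11 with limma-voom. With equal sums Pcdhg stood at 61.6 FPKM in control cells against 82.1 FPKM, and non-clustered genes at 31.9 against 44.8 FPKM. The cause of the other shifts was not tested.

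Leaving out 1 library gave 21 to 23 rises and 5 to 5 falls among members (18 to 20 clustered rises), 2895 to 3316 rises and 3788 to 4524 falls in all, 3 to 6 rises and 6 to 9 falls in the chromatin list, and 6 to 8 rises and 7 to 9 falls in the partner list. Deviations of same-numbered libraries from their group means had correlations of -0.07, -0.23 and 0.08, and those of differently numbered ones -0.25 to 0.30. With 3 libraries a group, these values cannot tell whether same-numbered libraries share an origin. With the replicate block 23 members rose and 5 fell, and the chromatin list had 3 rises and 6 falls.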

Other observations

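Pcdhgb8 lies in the gamma cluster, is annotated as a polymorphic pseudogene and so is not among the 69 genes. It had 30, 43 and 23 reads in the controls and 43, 42 and 26 reads in SETD4 OE, and its level was 0.416 ± 0.109 FPKM against 0.505 ± 0.144 FPKM (SD, n = 3), with overlapping groups.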
